A study of Xenopus laevis with 3 samples.

Results

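The genes described here are 3 cytochrome P450 genes of the CYP3A subfamily (cyp3a4.1.L, cyp3a4.2.L and cyp3a5.L), the nuclear receptor gene nr1i2.S and the P450 reductase gene por.L in the liver of Xenopus laevis, the African clawed frog. They were taken by their gene symbol in the platform annotation, which gave 5 genes with 9 probe sets, of 11303 genes with a single symbol and 32539 probe sets in all. Female frogs received intraperitoneal injections on 2 consecutive days of pregnenolone (50 mg/kg, 3 frogs), of artemisinin (200 mg/kg, 3 frogs), both dissolved in DMSO, or of DMSO alone, and their livers were taken 24 h after the last injection. The number of DMSO frogs is not spelled out in the labels. The RNA within each group was pooled and measured on 1 Affymetrix array, in a search for target genes of the frog constitutive androstane receptor. The doses of the compounds differ, no value has a replicate error, and no difference was tested.

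CYP3A enzymes oxidise steroids, bile acids and a large share of medical drugs, and in mammals they are the best known target genes of the pregnane X receptor (PXR), the product of NR1I2. PXR and its relative the constitutive androstane receptor (CAR, NR1I3) bind DNA as partners of the retinoid X receptors, and pregnanes such as pregnenolone derivatives gave PXR its name. Artemisinin drugs are known as activators of both receptors in human cells. The frog gene nr1i2.S also carries the names bxr and onr1 in the gene table, for the benzoate X receptor, which was described as a receptor for benzoates in frog embryos. P450 oxidoreductase hands electrons from NADPH to all P450 enzymes of the endoplasmic reticulum, and each P450 holds a heme.

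Values are log2 expression values made by robust multiarray averaging (RMA), so a difference of 1 is a factor of 2. A difference was counted when it reached 1.5-fold (0.58 on the log2 scale), among the 16270 probe sets that passed a level filter, a 3-array mean no lower than the median of such means (5.61). Of the 9 probe sets of the described genes, 8 passed the filter. Only values of 1 probe set are compared with each other, since the brightness of different probe sets is not comparable.

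The receptor gene nr1i2.S (Entrez gene 399017) was highest on the pregnenolone array with both of its probe sets. Probe set Xl2.697.1.S2_at stood at 7.63 with pregnenolone, at 6.90 with artemisinin and at 6.40 with DMSO. Probe set Xl2.697.1.S1_at stood at 6.54 with pregnenolone, at 6.05 with artemisinin and at 6.09 with DMSO. Both thus placed the pregnenolone pool above the other pools, while the artemisinin pool lay above DMSO with the first and just below it with the second.

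The difference between pregnenolone and DMSO was 1.23 (2.35-fold) with the first nr1i2.S probe set and 0.44 (1.36-fold) with the second. Among all probe sets above the filter, 153 (0.94%) were at least as far above DMSO as the first and 1391 (8.55%) as the second. For artemisinin against DMSO the differences were 0.50 (1.41-fold) and -0.04 (0.97-fold). The probe sets of nr1i2.S therefore differed in size for pregnenolone, and for artemisinin only the first lay further from DMSO than 0.22, the SD between probe sets of 1 gene for that difference. Their gap was 0.79 for pregnenolone and 0.54 for artemisinin, and gaps of at least that size occurred in 5.67% and 7.69% of the 1287 genes with several probe sets above the filter. Here and below, the SD between probe sets is taken on the same arrays. It holds no spread between frogs or arrays, so it cannot tell whether a difference would recur.

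**Figure D1:**
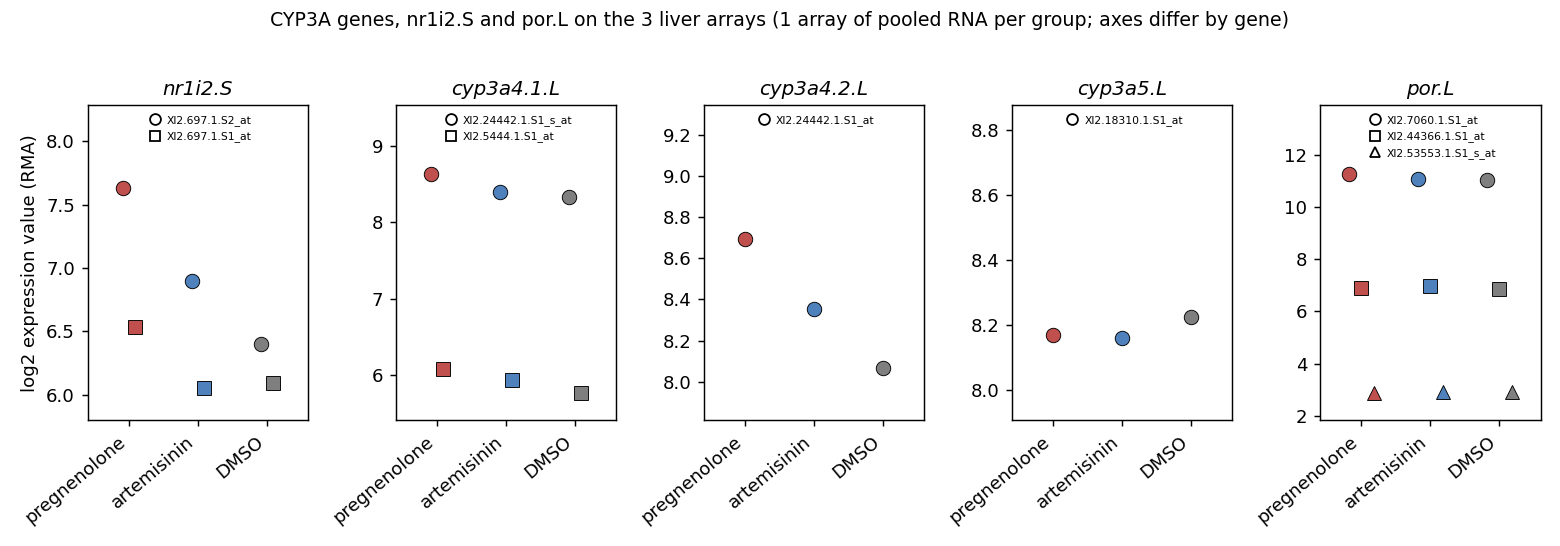
Log2 expression value (RMA, vertical axis) of every probe set of the 5 genes on the pregnenolone, artemisinin and DMSO arrays, with 1 point per array, a symbol per probe set and an axis range of its own for each gene. Both nr1i2.S probe sets and the cyp3a4.2.L probe set were highest with pregnenolone (7.63, 6.54 and 8.69), whereas cyp3a5.L lay between 8.16 and 8.22 on all arrays.

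The other copy of the receptor gene, nr1i2.L (379051), has 1 probe set, which lay below the level filter at 4.50 with pregnenolone, 4.49 with artemisinin and 4.62 with DMSO. Its differences from DMSO were -0.12 for pregnenolone and -0.14 for artemisinin. No probe set used here carries the symbol nr1i3, so the CAR gene itself was not analysed here.

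Both cyp3a4 genes had their highest value with pregnenolone and their lowest with DMSO, in 3 of 3 probe sets. Of these, 2 list the same sequence record, so they are not separate observations. Of all probe sets above the filter, 32.8% were highest with pregnenolone, and the share lowest with DMSO was not taken. The larger difference belonged to cyp3a4.2.L (100037189), at 8.69 with pregnenolone, 8.35 with artemisinin and 8.06 with DMSO. It was 0.63 (1.55-fold) above DMSO with pregnenolone, just past the 1.5-fold mark, and 0.29 (1.22-fold) with artemisinin. In the background, 4.83% of probe sets were at least as far above DMSO with pregnenolone and 9.55% with artemisinin.

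The gene cyp3a4.1.L (398964) is represented by 2 probe sets. Probe set Xl2.5444.1.S1_at read 6.09 with pregnenolone, 5.94 with artemisinin and 5.76 with DMSO, giving differences from DMSO of 0.32 (1.25-fold) for pregnenolone and 0.17 (1.13-fold) for artemisinin. Its 3-array mean of 5.93 lay little above the level filter of 5.61. Probe set Xl2.24442.1.S1_s_at read 8.63 with pregnenolone, 8.40 with artemisinin and 8.33 with DMSO, giving 0.30 (1.23-fold) for pregnenolone and 0.07 (1.05-fold) for artemisinin. Both lay in the same order of arrays and within 1.5-fold of DMSO.

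The last of these is uncertain in its gene. The annotation lists the same sequence record for it as for the only probe set of cyp3a4.2.L, 2 probe sets in all, and its _s_ suffix marks probes shared by several transcripts, so its signal may combine both cyp3a4 genes. In the RefSeq gene table (Xenopus_laevis_v10.1) cyp3a4.2.L and cyp3a4.1.L lie on the same chromosome with 1 annotated gene, LOC121393716, between them, whereas cyp3a5.L lies elsewhere between tcaim.L and topaz1.L.

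The third CYP3A gene, cyp3a5.L (495363), showed no such pattern. It read 8.17 with pregnenolone, 8.16 with artemisinin and 8.22 with DMSO. The differences from DMSO were -0.06 for pregnenolone and -0.07 for artemisinin, and the range over the arrays was 0.07, below the SD between probe sets of 1 gene for either difference (0.28 for pregnenolone and 0.22 for artemisinin). Neither the spread between frogs nor that between arrays is part of this SD.

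The main probe set of por.L (379707), Xl2.7060.1.S1_at, read 11.26 with pregnenolone, 11.08 with artemisinin and 11.02 with DMSO. The differences from DMSO were 0.24 (1.18-fold) for pregnenolone and 0.06 (1.04-fold) for artemisinin. Probe set Xl2.44366.1.S1_at read 6.91 with pregnenolone, 6.98 with artemisinin and 6.87 with DMSO, so its order was another, with differences of 0.04 for pregnenolone and 0.11 for artemisinin. The third, Xl2.53553.1.S1_s_at, lay far below the filter with 2.86 for pregnenolone and 2.90 for both artemisinin and DMSO. None of the differences of por.L between any 2 of the arrays reached 1.5-fold, and all were smaller than the SD between probe sets of 1 gene.

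With pregnenolone, 2 of the 8 probe sets above the filter were at least 1.5-fold higher than with DMSO, against 5.48% of all probe sets, and 0 were lower, against 4.92%. The counted probe sets were the first of nr1i2.S and that of cyp3a4.2.L. With artemisinin 0 were higher, against 2.93%, and 0 lower, against 2.77%. The median difference of the 8 was 0.31 for pregnenolone and 0.09 for artemisinin, and that of all probe sets was 0 in both. The comparisons with DMSO share the DMSO array, so they are not independent of each other.

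**Figure D2:**
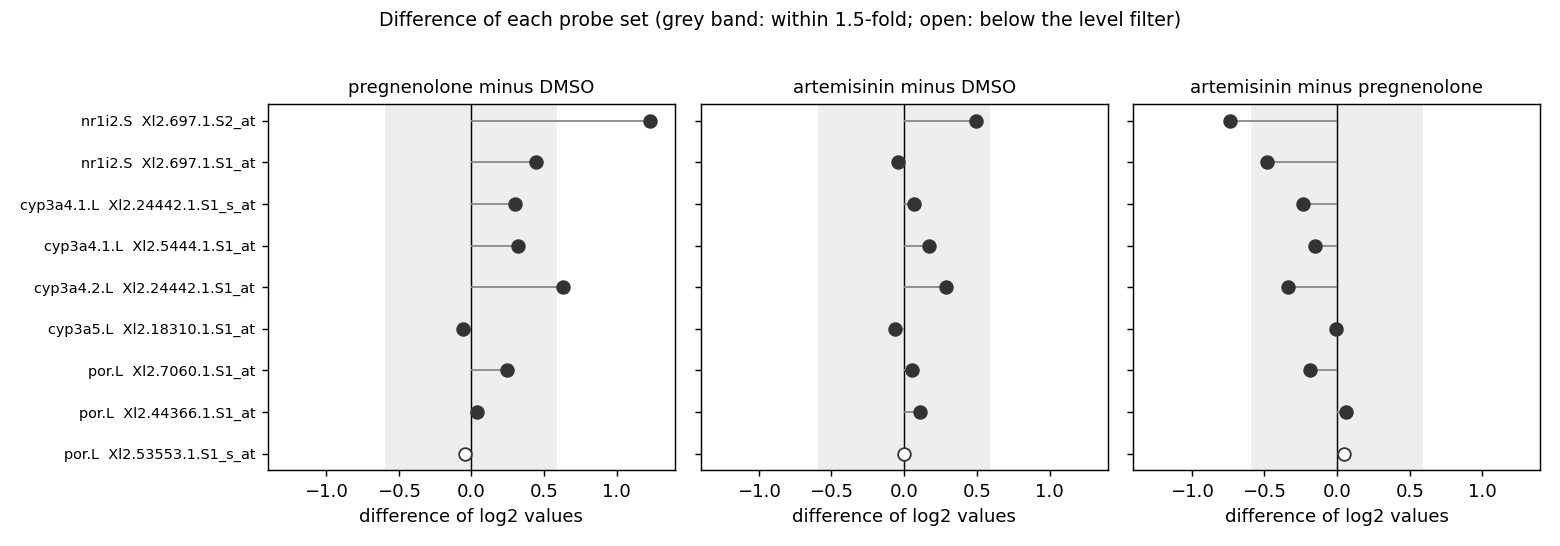
Difference of log2 values (horizontal axis) of each of the 9 probe sets for each compound minus DMSO and for artemisinin minus pregnenolone, with a grey band for differences within 1.5-fold and an open symbol for the probe set below the level filter. Outside the band lay the first nr1i2.S probe set (1.23) and cyp3a4.2.L (0.63) in the first panel. None did in the second, and the first nr1i2.S probe set (-0.73) did in the third. The second nr1i2.S probe set lay inside the band in every panel.

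The DMSO array stood apart from both others in transcripts of the exocrine pancreas: of 23 pancreas genes with a probe set, taken without the level filter, 12 were at least 1.5-fold lower with pregnenolone, 12 with artemisinin, and 0 higher with either. Without the filter, 965 probe sets of the array were lower and 1043 higher with pregnenolone, and 571 and 611 with artemisinin. The array holds 32539 probe sets without its controls. A share of all genes was not taken without the filter. The filter left 7 of the 23 pancreas genes. Of these, 3 lay under it on both treated arrays and passed through their DMSO value alone, so a lower value was built in for them. An example is prss3.S, a trypsin gene with the largest fall of the 7, at 4.56 with pregnenolone, 4.47 with artemisinin and 11.39 with DMSO. On the list of stellate, smooth muscle and endothelial genes, 5 of 7 were also lower with pregnenolone and 6 of 7 with artemisinin. The endothelial gene pecam1.L was not among them, at -0.10 with pregnenolone and -0.42 with artemisinin. Of all genes above the filter, 5.03% and 2.98% were lower. Among the 7, tagln.S likewise passed through its DMSO value alone (6.89, against 5.11 with pregnenolone and 5.13 with artemisinin). Hepatocyte genes (17 above the filter) had a mean value of 12.44 with pregnenolone, 12.70 with artemisinin and 12.55 with DMSO. Of the 17, 1 was higher and 3 lower with pregnenolone, against 6.22% and 5.03% of all genes. With artemisinin 3 were higher and 0 lower, against 3% and 2.98%. Median differences from DMSO for pregnenolone and artemisinin were -0.29 and 0.07 for intestinal epithelium (3 genes) and 0.00 and 0.00 for biliary cells (6 genes). They were -0.38 and -0.29 for leukocytes (4 genes) and 0.07 and -0.74 for erythrocytes (6 genes). The intestinal 0.07 is the value of apob.S, whose cells of origin here were not tested. With pregnenolone 1 intestinal, 2 biliary, 1 leukocyte and 1 erythrocyte gene were lower, against 5.03% of all genes. With artemisinin 0 intestinal, 1 biliary, 0 leukocyte and 4 erythrocyte genes were lower, against 2.98%. On these lists 0 genes were higher with either compound, against 6.22% and 3%. No gene of the oocyte list passed the filter. The part of these cells in the values of the CYP3A, nr1i2.S and por.L probe sets was not tested, and in pooled tissue fewer cells of a type and less RNA per cell cannot be told apart.

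The comparison of artemisinin with pregnenolone leaves the DMSO array out. In it nr1i2.S was lower with artemisinin by both probe sets, with differences of -0.73 (0.60-fold) and -0.48 (0.72-fold). Of all probe sets above the filter, 96.6% and 91.9% had differences at least as high. The cyp3a4.2.L probe set differed by -0.34, those of cyp3a4.1.L by -0.15 and -0.23, and cyp3a5.L by -0.01. The por.L probe sets above the filter differed by -0.19 and 0.06.

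Thus 1 of the 8 probe sets was at least 1.5-fold lower with artemisinin than with pregnenolone, against 5.65% of all, and 0 were higher, against 5.13%. The highest value was on the pregnenolone array for 6 of the 8, the main por.L probe set among them. It was on the artemisinin array for 1 (por.L probe set Xl2.44366.1.S1_at) and on the DMSO array for 1 (cyp3a5.L). Among all probe sets above the filter the shares were 32.8% for pregnenolone, 23.8% for artemisinin and 25.1% for DMSO, with ties left out. The 8 are not independent, since several belong to the same gene or may share probes.

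**Figure D3:**
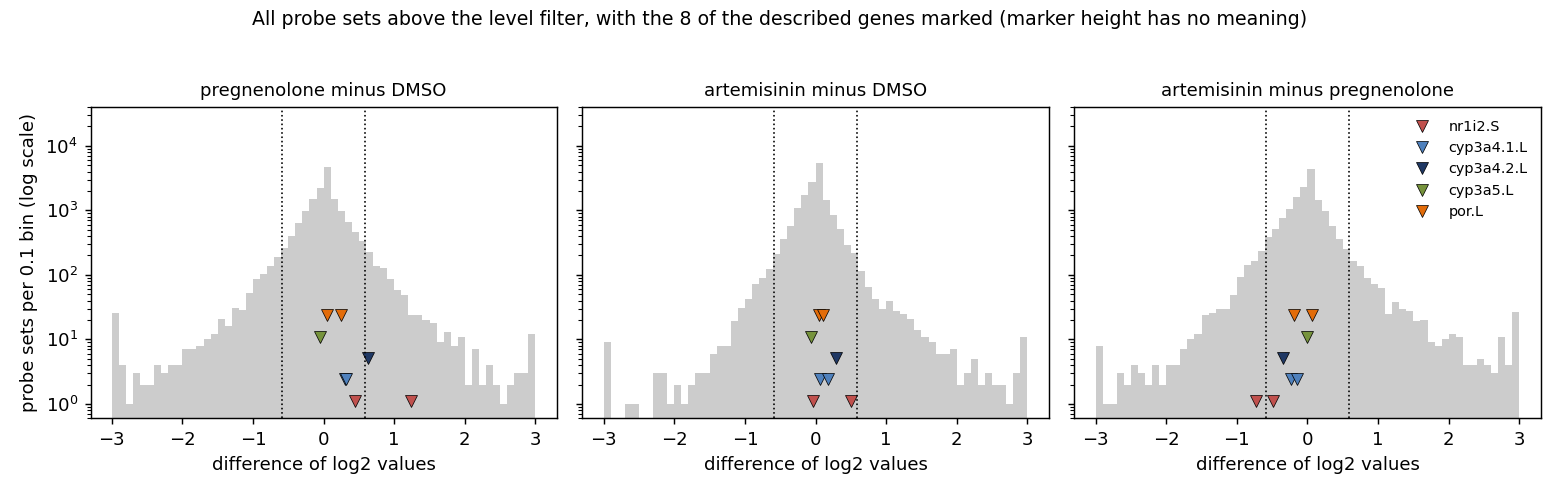
Number of probe sets above the level filter (vertical log axis) by difference of log2 values (horizontal axis, bins of 0.1, with the end bins holding all values beyond the axis) in the 3 comparisons, with dotted lines at 1.5-fold and triangles for the probe sets of the 5 genes. The first nr1i2.S probe set, at 1.23, lay in the upper tail for pregnenolone, where 0.94% of probe sets were as far above DMSO, whereas cyp3a5.L and por.L lay in the central mass of all panels.

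The list of partners and regulators of the receptor includes nr1i2.S itself. Of 29 listed genes, 1 was at least 1.5-fold higher with pregnenolone and 2 were lower, against 6.22% and 5.03% of all 7478 genes. The median was -0.05, and the higher gene was nr1i2.S by its first probe set. The lower genes were nr1h5.S (-0.87), a relative of the bile acid receptor, and rxrg.L (-0.84), the gamma form of the retinoid X receptor. With artemisinin 1 was higher, nfil3.L (1.22), a transcriptional repressor, and 1 lower, rxrg.L (-0.84), against 3% and 2.98% of genes, with a median of 0.04. The gene for the retinoid X receptor alpha, rxra.L, read 6.59 with pregnenolone, 7.06 with artemisinin and 6.83 with DMSO. The liver regulator hnf4b.S was at -0.44 with pregnenolone and at -0.51 with artemisinin. The list includes both epas1 copies, matched through a synonym of another gene.

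Among 17 genes of electron transfer to P450 enzymes and of their partners, 3 were at least 1.5-fold higher with pregnenolone and 0 lower, against 6.22% and 5.03% of all genes, with a median of 0.09. They were cyb5b.L (0.99), the cytochrome b5 of the outer mitochondrial membrane, fdxr.L (0.77), the reductase that serves mitochondrial P450 enzymes, and pgrmc2.S (0.61), a heme-binding membrane protein. The gene cyb5b.L read 10.59 with pregnenolone, 9.33 with artemisinin and 9.60 with DMSO. The gene cyb5a.L, the cytochrome b5 of the endoplasmic reticulum, read 10.84 on all arrays, with exactly equal values for pregnenolone and DMSO. With artemisinin hmox1.L, the heme oxygenase that breaks heme down, was 0.60 higher, its copy hmox1.S was at 0.56, blvrb.L, a biliverdin reductase, was 0.79 lower (-0.79), and the list median was 0. These made 1 gene counted as higher and 1 as lower, against 3% and 2.98% of all genes.

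The heme synthesis list of 12 genes had 2 genes higher and 0 lower with pregnenolone (median 0.24), against 6.22% and 5.03% of all genes. With artemisinin 2 were higher and 3 lower (median -0.27), against 3% and 2.98%. The higher genes were the copies of alas1, the enzyme that starts heme synthesis and a target of PXR and CAR in mammals. The gene alas1.L read 10.22 with pregnenolone, 10.99 with artemisinin and 8.99 with DMSO, and alas1.S read 10.31 with pregnenolone, 11.95 with artemisinin and 9.62 with DMSO. Both were thus highest with artemisinin, unlike nr1i2.S and the cyp3a4 genes. The third gene counted as lower with artemisinin, beside the erythroid copies alas2.L and alas2.S, was alad.S (-0.80). The alas2 copies were at 0.54 and 0.32 with pregnenolone and at -0.75 and -1.08 with artemisinin. These alas2 copies are also 2 of the 6 erythrocyte markers. The other 4 of these had a median of 0.04 with pregnenolone and -0.39 with artemisinin, and ranged from -0.03 to -1.44 with artemisinin.

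Genes known as PXR or CAR targets in mammals, por.L among them, differed in both directions. Their list was not divided by whether the receptors raise or lower a gene in mammals. Its counts and medians therefore do not show which differences follow the known direction. Of 36 such genes, with CYP3A left out, 4 were higher and 10 lower with pregnenolone (median -0.08), against 6.22% and 5.03% of all genes, and 5 of the 10 lower ones were copies of the glucose-6-phosphatase gene g6pc1. Also among the 10 were cyp2a6.9.L (-0.94), cyp2a6.1.L (-0.95) and cyp2a6.3.L (-1.34). Of the other cyp2a6 genes listed, cyp2a6.1.S was higher (1.70) and cyp2a6.10.L was at -0.29. With artemisinin 5 of the 36 were higher and 7 lower (median 0.02), against 3% and 2.98%. Of the 36 genes, 11 are also on another list of the P450 system. The lowest with pregnenolone were g6pc1.2.S (-3.89), g6pc1.1.L (-3.60) and g6pc1.1.S (-2.92), and the largest with artemisinin were pck1.L (3.34), of glucose synthesis, g6pc1.3.L (-2.63) and alas1.S (2.34). The gene pck1.L read 4.97 with pregnenolone, 8.65 with artemisinin and 5.32 with DMSO, so it passed the level filter only through the artemisinin array and the size of its difference rests on a low DMSO value. The list of CYP families 1 to 4, without CYP3A, held 17 genes, 8 of them also among the 36 targets. With pregnenolone 2 were higher and 5 lower (median -0.21), against 6.22% and 5.03% of all genes, led by cyp4f2.L (-1.96, with a pregnenolone value of 5.27 under the filter), cyp2a6.1.S (1.70) and cyp2a6.3.L (-1.34). With artemisinin 2 were higher and 1 lower (median -0.04), against 3% and 2.98%, namely cyp2f1.S (2.44), cyp1a1.S (1.06) and cyp2a6.3.L (-0.99).

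The list of steroid entry and handling had 2 of 21 genes higher and 2 lower with pregnenolone (median -0.04), near the 6.22% and 5.03% of all genes. With artemisinin 2 were higher and 1 lower (median -0.02), against 3% and 2.98%. The aldo-keto reductase gene akr1c2.L was at 1.68 with pregnenolone and at 4.96 with artemisinin. With pregnenolone it was followed by sult2b1.S (0.97, from a DMSO value of 5.50 under the filter), a sulfotransferase that acts on pregnenolone and cholesterol in mammals, and by hsd17b11.L (-0.71). The gene sult2b1.S read 6.47 with pregnenolone and 5.67 with artemisinin. It passed the mean filter through its pregnenolone value, so its count as higher is not independent of the filter. With artemisinin akr1c2.L was followed by akr1d1.S (1.17), a steroid reductase, and srd5a3.S (-0.80).

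**Figure D4:**
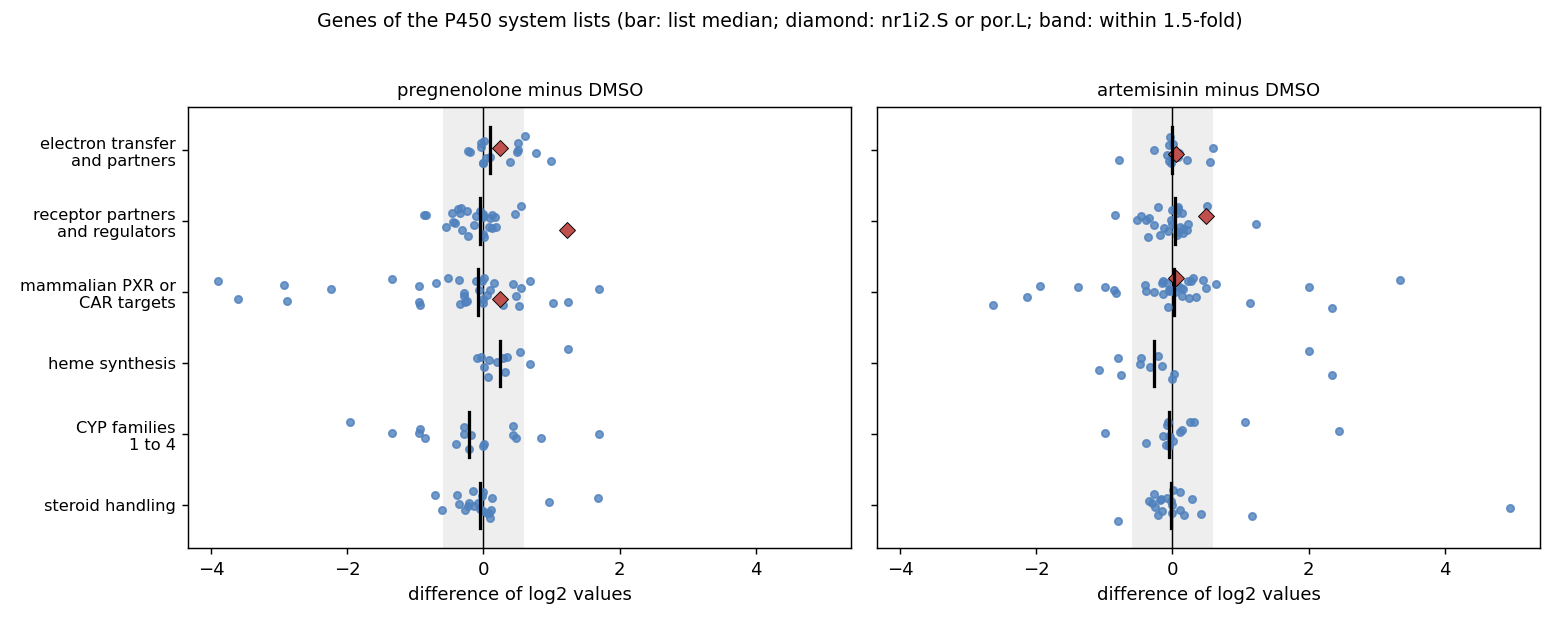
Difference from DMSO (log2, horizontal axis) of each gene on the 6 lists of the P450 system for pregnenolone and for artemisinin, with a point per gene, a bar at the list median, a red diamond for nr1i2.S or por.L and a grey band for differences within 1.5-fold. The nr1i2.S gene, shown by its first probe set only, had the highest value of its list with pregnenolone (1.23). The por.L gene lay inside the band in every list and panel that holds it.

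Genes whose pair of differences from DMSO lay nearest to that of the first nr1i2.S probe set were pcyt1b.S (1.14 with pregnenolone and 0.48 with artemisinin), gmppb.S (1.32 and 0.51), ept1 (1.18 and 0.42), stx5.L (1.33 and 0.55) and tmbim1.L (1.28 and 0.40), at distances from 0.09 to 0.11. Likeness was the Euclidean distance over these differences, from 3 arrays. Within a distance of 0.25 there were 20 genes of 7287 for nr1i2.S and 265 for cyp3a4.2.L. The nearest to cyp3a4.2.L were ublcp1.S, psme3.L, tfcp2l1.L, eif4e3.L and prkag1.L, at distances from 0.03 to 0.04.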

How the data were processed

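Liver RNA pools were measured on 3 Affymetrix arrays, 1 per group. The deposited log2 values were made by the authors with RMA (version not given), per the submitters' processing notes; base 2 is how RMA is defined and fits the range of the values. RMA makes the distributions of the arrays alike, which removes differences in total message. Of probe sets above the filter, 13% to 17.1% had exactly equal values on 2 arrays.

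Symbols came from the platform annotation, updated by Entrez gene through the RefSeq gene table; all 9 probe sets matched. No sequence of a probe, promoter or protein was used here. Differences were taken between arrays with python 3.11.15 and pandas 2.3.3. In lists, a gene was represented by its probe set of highest mean. Only the counting of differences past the fold, under each scaling, was tested on simulated arrays. The number of arrays limits the precision.

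The genes and lists were chosen with earlier results of these data known. Genes named were all probe sets of the described genes and their other copies, per list the 3 largest differences from DMSO in each comparison, the rxra, alas1 and nr1i3 genes, and the 5 nearest patterns. The genes prss3.S, pecam1.L, apob.S, cyb5a.L, alad.S, tagln.S and alas2.L with artemisinin fall outside these rules and were named with their values known. The same holds for cyp2a6.9.L, cyp2a6.1.L and cyp2a6.10.L. Alternatives were median centring, quantile normalization, loess (span 0.3), other filters, a 2-fold threshold, leaving out probe sets with a cross-hybridisation suffix and means over probe sets. Exclusion of synonym matches and of nr1i2.S and por.L from the lists was added after seeing the data.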

Additional observations from a re-analysis of the deposited data

How the results depend on the processing

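No paired analysis was possible because each group is 1 array, and no replicate could be left out. Under median centring, quantile normalization and loess, all 81 differences of the 9 probe sets moved by less than the SD between probe sets of 1 gene, at most by 0.05. RMA had already made the distributions of the arrays alike, with medians of 5.61 for pregnenolone and 5.62 for artemisinin and DMSO. Little movement under these scalings was therefore built in. As the mean of its probe sets, nr1i2.S differed from DMSO by 0.84 with pregnenolone and by 0.23 with artemisinin. At 2-fold, 1 of the 8 probe sets above the filter was higher with pregnenolone than with DMSO, and 0 were lower with artemisinin than with pregnenolone. Of all 16270 probe sets above the filter, 272 were higher and 246 lower at 2-fold for pregnenolone against DMSO. These counts were 201 and 101 for artemisinin against DMSO, and 334 and 225 for artemisinin against pregnenolone. The list genes, 121 in all, gave 11 higher and 16 lower for pregnenolone against DMSO at 1.5-fold, and 5 and 7 at 2-fold. For artemisinin against DMSO they gave 11 and 13 at 1.5-fold, and 9 and 5 at 2-fold. For artemisinin against pregnenolone they gave 22 and 11 at 1.5-fold, and 11 and 5 at 2-fold. At 1.5-fold, 6.22% of all genes were higher and 5.03% lower with pregnenolone than with DMSO, and 3% and 2.98% with artemisinin. For artemisinin against pregnenolone only the shares of all probe sets were taken, 5.13% higher and 5.65% lower. No share of all genes was taken at 2-fold, so the list counts there have no background. The scalings, the other filters, means over probe sets, and the lists without nr1i2.S and por.L or without synonym matches, kept the counts of described probe sets, of all probe sets and of the 121 list genes within 1.5 times, where each was run. Counts of single lists were not recomputed. With 1 array per group, the spread between frogs and between arrays is unknown, and the second nr1i2.S probe set did not reach 1.5-fold.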
